A study of Mus musculus with 17 samples.

Results

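The comparison described here sets 4 libraries of induced extraembryonic endoderm cells (iXEN cells) kept in XEN medium, numbered 1, 2, 6 and 9 in the labels, against 3 libraries of mouse embryonic fibroblasts (MEF), numbered 1, 2 and 3. The members are all libraries carrying those group labels, 7 of the 17 libraries of the series. The series title states that the reprogramming factors Oct4, Sox2, Klf4 and c-Myc (OSKM) induce iXEN cells in parallel to iPS cells, and the question addressed is how far the messenger RNA of such cells departs from that of fibroblasts. Polyadenylated RNA was sequenced and reads were counted per gene. All groups are of the CD-1 strain. The MEF were controls taken after 3 passages in MEF medium. The iXEN lines had spent 10 passages in ESC medium and then 5 passages in XEN medium. A second iXEN group, 4 libraries with the same numbers, had 5 further passages in ESC medium in place of XEN medium, and 3 libraries of XEN cells, numbered 1, 2 and 7, had the same history as the iXEN cells in XEN medium. Cell type, medium and passage number therefore differ together between iXEN cells and MEF and cannot be told apart. The labels do not state the vector, the promoter that drove the factors or whether a line is 1 clone, and the p-values measure the spread between these libraries.

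Extraembryonic endoderm descends from the primitive endoderm of the blastocyst and gives rise to the visceral endoderm, which absorbs and secretes nutrients around the embryo, and to the parietal endoderm, which lays down the thick basement membrane named after Reichert. The lineage is set up by GATA factors and SOX17 downstream of FGF signalling. XEN cells are its stem cell lines in culture and are known for high laminin and collagen IV output. Embryonic fibroblasts, in contrast, make interstitial collagen and carry mesenchymal and positional (Hox) regulators.

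Library sizes did not separate the groups, with 25871507 to 33893638 counts in genes in MEF and 26368023 to 38523328 in iXEN cells. Reads without a unique position made up 14.7% to 15.9% of the files of MEF and 16.3% to 24.6% of those of iXEN cells. The MEF libraries were nearly alike (Pearson's r of log2 expression across genes 0.980 to 0.987), and the iXEN libraries less so (0.792 to 0.919). The coefficient of biological variation was 0.195 in MEF and 0.547 in iXEN cells. Correlations between iXEN cells and MEF ran from 0.516 to 0.722, and the highest of these involved iXEN library 2. Libraries 2 and 9 stood apart from 1 and 6 by fibroblast genes. Of 9213 genes with a mean of at least 10 CPM in MEF, 706 in library 1 and 676 in library 6 were below 1% of that mean, but 121 in library 2 and 277 in library 9, and 75 were so in all 4. Results on fibroblast genes are therefore given with and without libraries 2 and 9. Among sex-linked genes, the Y-linked Ddx3y was at 89.1, 82.4 and 108 CPM in MEF and 147, 21.97, 0 and 21.7 CPM in iXEN cells, and the X-inactivation RNA Xist at 0.418, 11.1, 0.812 and 0.463 CPM in iXEN cells, so library 6 held no count of Ddx3y. In ESC medium, iXEN library 6 held 25.3 CPM of Ddx3y, and iXEN library 9 held 2239 CPM of Xist, so libraries with a shared number differed in these genes between the media.

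Against MEF, 4708 of 14438 tested genes (32.6%) differed in iXEN cells at an adjusted p under 0.05 in edgeR's quasi-likelihood test, which is what called, rose and fell mean here. Of the genes tested, 17.7% were called higher (2560 genes) and 14.9% called lower (2148 genes). The counts of each list below stand beside these shares. The lists were chosen with earlier results of these data known. A high share called in a list is therefore a description and not a test. Values are CPM, counts scaled to library size and by TMM factors, listed in the order MEF 1, 2 and 3, then iXEN 1, 2, 6 and 9. CPM are not per gene length, so levels are compared between libraries and not between genes. The groups did not overlap in CPM for 7400 genes (51.3%), of which 2783 were not called. In 2046 of those 2783 genes the iXEN libraries were all below MEF. Leaving out 1 library at a time left 1676 of the 4708 genes called in all 7 fits (35.6%), and none of the 4708 changed sign. The count fell to 1847, 2245 and 1842 without MEF 1, 2 and 3 (12.5%, 15.1% and 12.6% of the genes tested there). It stood at 39.4%, 38.8%, 23.5% and 34.2% without iXEN 1, 2, 6 and 9. With iXEN libraries 2 and 9 left out together it was 7440 genes (51.8%), 23% higher and 28.8% lower. Those 2 libraries were set aside after their fibroblast genes had been seen to be high, so the choice itself lowers fibroblast genes in that fit. Its counts, on those genes and on other lists, are given as a description from which nothing is read. For most lists, counts above 0 that moved by over 1.5 times without a library are given beside the list. The 31 gene lists described below held 398 tested genes, of which 173 were called and 98 (56.6%) were called in all 7 fits. Fold changes are log2 of iXEN cells over MEF with their standard error (SE), and where a gene given with its values lost its call without a library, that library is named beside it.

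Most transcription factors that establish endoderm were high in every iXEN library and near 0 in MEF. In the list of endoderm transcription factors, 12 of 13 tested members were called higher and 0 lower, with a median log2 fold change of 8.78 against 0.06 over all genes tested. Over all genes tested 17.7% were called higher and 14.9% lower. The iXEN libraries did not overlap MEF in 12 of the 13, against 51.3% of all genes tested. Gata4, a zinc-finger activator of primitive endoderm genes, was at 0.929, 1.43 and 1.30 CPM in MEF against 583, 469, 621 and 562 CPM in iXEN cells (log2 fold change 8.91 ± 0.36 SE, adjusted p = 9.39e-05). Sox17, the SRY-box factor required for endoderm, was at 0.0774, 0.339 and 0.206 CPM in MEF against 318, 356, 335 and 144 CPM in iXEN cells (log2 fold change 10.48 ± 0.70 SE, adjusted p = 0.000309). The iXEN libraries stood far above MEF for both genes, and Sox17 was lowest in library 9. Sall4, a zinc-finger factor shared by pluripotent cells and extraembryonic endoderm, was at 0.348, 0.339 and 0.206 CPM in MEF against 222, 143, 357 and 278 CPM in iXEN cells (log2 fold change 9.78 ± 0.54 SE, adjusted p = 0.0002). Sall4 did not overlap between the groups.

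Gata6, which acts at the top of the primitive endoderm programme, was already measurable in fibroblasts, at 10.9, 15.7 and 11.9 CPM in MEF against 259, 223, 551 and 257 CPM in iXEN cells (log2 fold change 4.72 ± 0.45 SE, adjusted p = 0.00106), and library 6 was well above the other iXEN libraries. Sox7, a partner of Sox17, was at 0.387, 0.452 and 0.560 CPM in MEF against 219, 91.5, 185 and 130.02 CPM in iXEN cells (log2 fold change 8.44 ± 0.45 SE, adjusted p = 0.000195). Foxa2, a forkhead pioneer factor of endoderm, was at 0.0387, 0.301 and 0.295 CPM in MEF against 80.9, 78.4, 128 and 77.8 CPM in iXEN cells (log2 fold change 8.78 ± 0.69 SE, adjusted p = 0.000591), again with library 6 highest. Hnf4a, a nuclear receptor of visceral endoderm and liver, was at 0, 0.0753 and 0 CPM in MEF and 14.3, 13.6, 13.96 and 7.44 CPM in iXEN cells. It was 528-fold higher in iXEN cells by pooled counts (95% counting interval 146 to 4367, 2 counts against 1649), adjusted p = 0.00244. Library 9 was the lowest for Hnf4a. Foxq1, Cited1 and Hhex were also among the 12 called members. Nr2f1, the member tested and not called, was at 7.43, 6.74 and 6.89 CPM in MEF and 0.646, 2.09, 1.56 and 36.8 CPM in iXEN cells, above MEF in library 9 alone. Foxa1 and Foxa3 were too low to test, with Foxa1 at 0 in all 4 iXEN libraries.

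**Figure D1:**
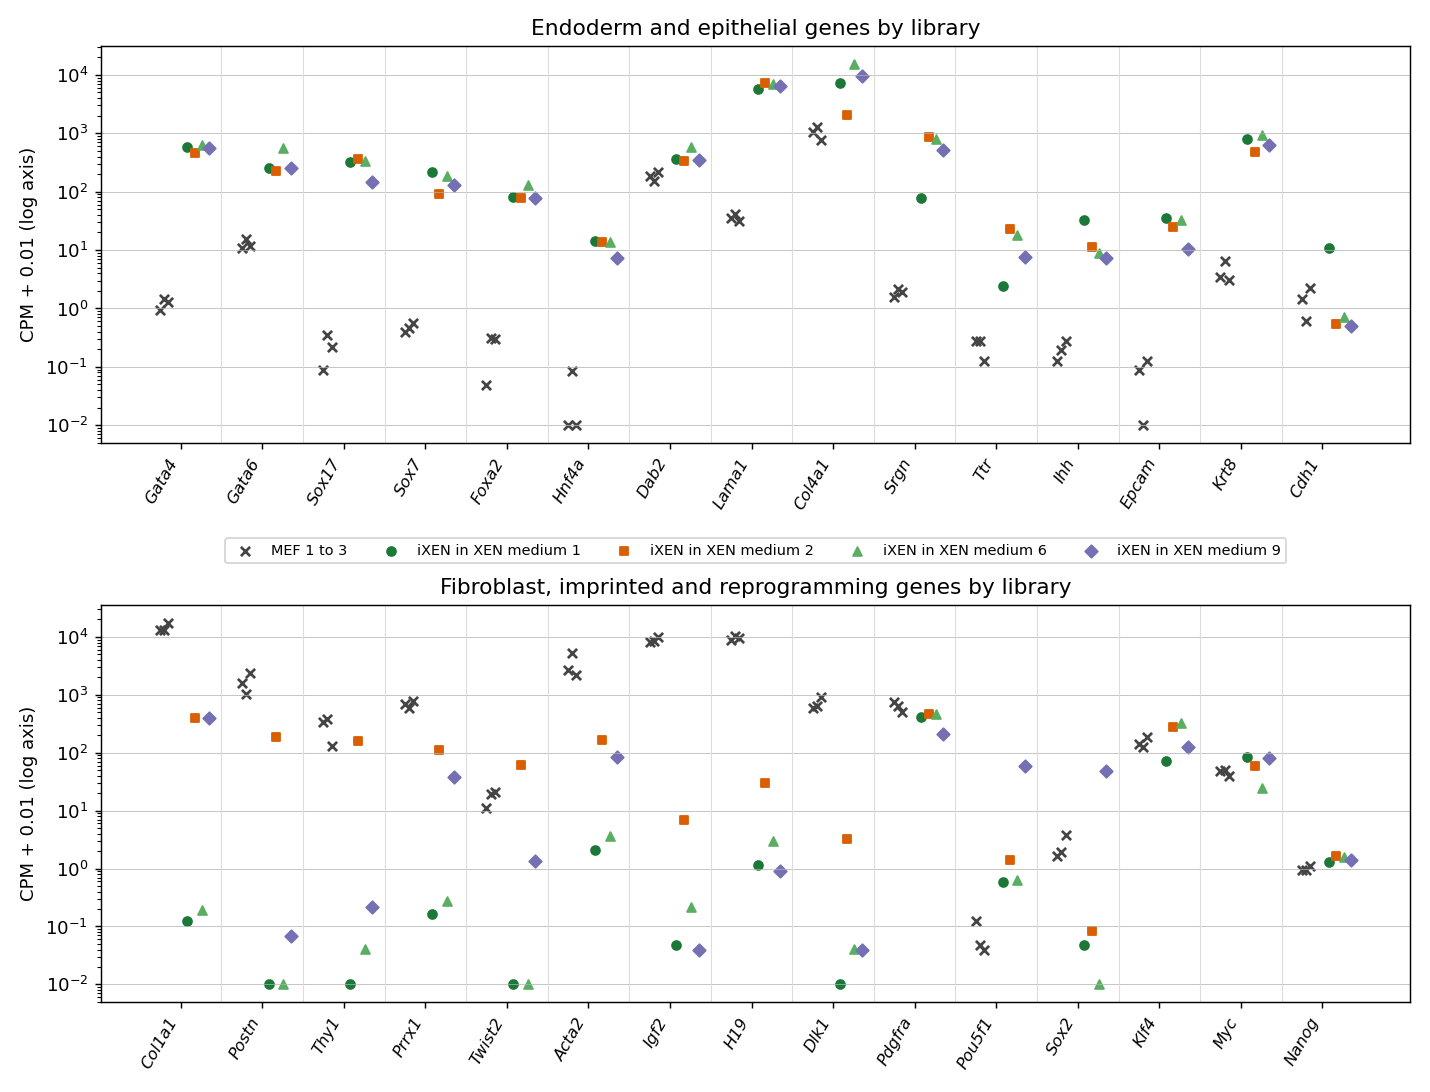
Expression of 30 named genes in each library, as CPM plus 0.01 on a log axis, with crosses for MEF 1 to 3 and 1 symbol for each iXEN library in XEN medium. In the upper panel, Gata4 lay between 469 and 621 CPM in iXEN cells against at most 1.43 CPM in MEF. In the lower panel the fibroblast genes split the iXEN libraries, as for Postn at 189 CPM in library 2 and 0 CPM in libraries 1 and 6.

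Since GATA factors bind the letters AGATAA, among related forms, this motif was looked for on both strands of the 250 bases before each annotated start site in RefSeq's promoter table (GRCm38.p6, another build than the mm9 of the counts). Of the 74 list genes called higher with a mean of at least 10 CPM in iXEN cells, 51 had an entry, with 69 windows. The motif occurred in 6 of the 69 windows (8.70%), against 3281 of all 32851 windows (9.99%), so the share was near the background. Among all 15 listed endoderm transcription factors, called or not, 7 had an entry and 2 held the motif. A match is a description of letters, and no binding was measured. Stretches that overlapped an annotated exon, or lay on a chromosome excluded by name, were left out. Among the rest, stretches around the match are shown for 4 of the 6 genes, in falling order of log2 fold change. They let the upstream sequence be seen beside the expression values. They lie upstream of Fgf3 (chr7:144838457-144838542, plus strand), Stra6 (chr9:58133825-58133904, plus strand), Foxa2 (chr2:148045602-148045687, minus strand) and Krt8 (chr15:102004536-102004592, minus strand), written 5′ to 3′ on the strand of the gene. Capitals mark AGATAA or, for a match on the opposite strand, TTATCT. The first capital lies at -115 from the start site of Fgf3, -216 for Stra6, -183 for Foxa2 and -239 for Krt8.
Fgf3: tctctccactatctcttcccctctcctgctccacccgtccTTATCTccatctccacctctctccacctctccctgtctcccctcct
Stra6: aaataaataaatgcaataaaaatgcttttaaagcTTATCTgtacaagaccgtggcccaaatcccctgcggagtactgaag
Foxa2: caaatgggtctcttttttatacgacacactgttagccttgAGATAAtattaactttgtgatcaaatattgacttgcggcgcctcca
Krt8: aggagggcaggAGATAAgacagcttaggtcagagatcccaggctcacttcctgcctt

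Genes of the endocytic machinery, by which endoderm takes up proteins from its surroundings, rose in part. In this list 6 of 9 tested members were called higher and 0 lower, with a median of 1.74. The 6 called higher became 3 without MEF 1, 2 or 3. The receptor genes Cubn (cubilin) and Lrp2 (megalin) were low in MEF and uneven in iXEN cells. Cubn was at 3.64, 3.69 and 4.01 CPM in MEF against 25.2, 167, 159 and 46.2 CPM in iXEN cells (log2 fold change 4.81 ± 0.79 SE, adjusted p = 0.00548). Lrp2 was at 5.19, 5.38 and 2.47 CPM in MEF against 395, 14.5, 153 and 8.86 CPM in iXEN cells (log2 fold change 5.04 ± 1.42 SE, adjusted p = 0.0322). Lrp2 was not called without MEF 1, 2 or 3, or without iXEN 6 (adjusted p up to 0.118). Library 1 was highest for Lrp2 and lowest for Cubn, and library 9 held little Lrp2. Lrpap1, the chaperone of these receptors, was even across iXEN libraries, at 116, 98.4 and 120.4 CPM in MEF against 1099, 691, 1112 and 1361 CPM in iXEN cells (log2 fold change 3.34 ± 0.34 SE, adjusted p = 0.00137). Dab2, their endocytic adaptor, was also expressed in MEF, at 187, 149 and 220.3 CPM in MEF against 359, 329, 582 and 345 CPM in iXEN cells (log2 fold change 1.20 ± 0.30 SE, adjusted p = 0.0212). Dab2 was not called without MEF 1, 2 or 3 (adjusted p up to 0.0942). The lysosomal proteases Lgmn and Ctsl were called higher as well, with Lgmn at 151, 132 and 169.6 CPM in MEF against 645, 669.7, 1112 and 625 CPM in iXEN cells (log2 fold change 2.42 ± 0.32 SE, adjusted p = 0.00297). Ctsl was at 642, 578 and 724 CPM in MEF against 1070.04, 2899, 2163 and 1963 CPM in iXEN cells (log2 fold change 1.74 ± 0.42 SE, adjusted p = 0.0191). Ctsl was not called without MEF 1, 2 or 3 (adjusted p up to 0.0855). Amn, the partner of cubilin, was at or below 0.228 CPM in all 7 libraries and was not tested. Clcn5, an endosomal chloride transporter, was at 51.1, 48.9 and 60.4 CPM in MEF and 131, 12.97, 6.38 and 4.69 CPM in iXEN cells, above MEF in library 1 and below MEF in the other 3.

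Basement membrane genes split into those that rose and those that fell. Of 16 tested members, 5 were called higher and 5 lower, with a median of 0.20. The 5 called higher became 3 without MEF 1, 2 or 3, and the 5 called lower became 3 without MEF 1, 2 or 3. The laminin-111 chains rose together. Lama1, the alpha chain of embryonic laminin, was at 35.3, 41.7 and 31.96 CPM in MEF against 5770.02, 7225, 6961 and 6568 CPM in iXEN cells (log2 fold change 7.60 ± 0.45 SE, adjusted p = 0.000222). Lamb1, the beta chain, was at 558, 534 and 516 CPM in MEF against 5876, 7844, 6717 and 5652 CPM in iXEN cells (log2 fold change 3.69 ± 0.37 SE, adjusted p = 0.00124). Lamc1, the gamma chain, was at 515, 504 and 531 CPM in MEF against 6347, 11090.1, 4719.6 and 3834 CPM in iXEN cells (log2 fold change 3.74 ± 0.52 SE, adjusted p = 0.00346). In all 3 chains the lowest iXEN library exceeded the highest MEF library several times over. Collagen IV changed by chain. Col4a1 was at 1057, 1260.2 and 779.6 CPM in MEF against 7307, 2019, 15379.9 and 9534 CPM in iXEN cells (log2 fold change 3.12 ± 0.71 SE, adjusted p = 0.0163). Col4a1 was not called without MEF 1, 2 or 3 (adjusted p up to 0.0789). Col4a2, its partner in the common network, was at 894, 985 and 666 CPM in MEF against 2608, 1194, 8032 and 7196 CPM in iXEN cells (log2 fold change 2.57 ± 0.72 SE, adjusted p = 0.0318). Col4a2 was not called without MEF 1, 2 or 3, or without iXEN 6 or 9 (adjusted p up to 0.123). Library 2 was the lowest iXEN library for both.

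Col4a5, Col4a6 and Col18a1 fell. Col4a5 was at 143, 131 and 111 CPM in MEF against 0.0380, 5.04, 0.0602 and 8.37 CPM in iXEN cells (log2 fold change -5.10 ± 1.54 SE, adjusted p = 0.0392). Col4a5 was not called without MEF 1, 2 or 3, or without iXEN 2 (adjusted p up to 0.1). Col4a6 was at 8.67, 12.003 and 5.63 CPM in MEF against 0, 0.836, 0.0301 and 0.203 CPM in iXEN cells (log2 fold change -4.86 ± 1.31 SE, adjusted p = 0.0277). Col4a6 was not called without MEF 1, 2 or 3 (adjusted p up to 0.0816). Col18a1, a basement membrane proteoglycan that holds endostatin, was at 196, 125.1 and 169.9 CPM in MEF against 0.532, 12.2, 0.632 and 1.53 CPM in iXEN cells (log2 fold change -5.33 ± 1.20 SE, adjusted p = 0.0156). Libraries 2 and 9 held most of the remaining Col4a5, and library 2 most of the remaining Col18a1. Hspg2 (perlecan) and Dag1 (dystroglycan, a laminin receptor) also fell. Dag1 was at 329, 295 and 387 CPM in MEF against 72.9, 76.9, 57.7 and 81.98 CPM in iXEN cells (log2 fold change -2.13 ± 0.23 SE, adjusted p = 0.00171). The linker genes Nid1 and Nid2 were not called, with log2 fold changes of 0.59 (95% interval -0.98 to 2.17, adjusted p = 0.518) and 0.10 (95% interval -0.75 to 0.95, adjusted p = 0.851). Summed over the list, the level was 12741, 12582 and 13144 CPM in MEF and 35709.5, 49326, 64105 and 47692 CPM in iXEN cells. The sum includes Sparc, a member not called. Sparc held the most counts of any gene in iXEN libraries 2 and 6, at 1.76% and 1.72% of their counts in genes.

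Among parietal endoderm genes, 7 of 13 tested members were called higher and 0 lower (median 1.55). Stra6, the receptor for retinol-binding protein, was at 0.581, 0.602 and 0.442 CPM in MEF against 329.5, 211, 339 and 277 CPM in iXEN cells (log2 fold change 9.13 ± 0.36 SE, adjusted p = 9.39e-05), and the iXEN libraries were close to each other. Srgn, the core protein serglycin, was at 1.55, 2.18 and 1.91 CPM in MEF against 79.2, 864, 785 and 509.7 CPM in iXEN cells (log2 fold change 8.32 ± 1.01 SE, adjusted p = 0.00244), with library 1 far below the other 3. Pth1r, the receptor of parathyroid hormone-related protein that acts in parietal endoderm formation, was at 15.9, 14.7 and 23.6 CPM in MEF against 431, 506, 1296 and 1527 CPM in iXEN cells (log2 fold change 5.80 ± 0.67 SE, adjusted p = 0.00205), and libraries 6 and 9 were the highest. The anticoagulant genes Thbd and Tfpi and the protease gene Plat rose more modestly. Thbd was at 61.7, 71.3 and 72.2 CPM in MEF against 212, 575, 399.96 and 264 CPM in iXEN cells (log2 fold change 2.50 ± 0.42 SE, adjusted p = 0.00561). Pdgfra, a surface marker of primitive endoderm that fibroblasts also carry, was not called, at 750.2, 636 and 514 CPM in MEF and 406, 471, 467 and 209.7 CPM in iXEN cells with a log2 fold change of -0.63 (95% interval -1.41 to 0.14, adjusted p = 0.176). Vim, the intermediate filament of mesenchymal and parietal cells, was at 3363, 5259 and 5377 CPM in MEF and 434, 951, 1014 and 4835 CPM in iXEN cells, and library 9 alone lay within the range of MEF. Vim was chosen after its values were seen.

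Among visceral endoderm genes, 8 of 12 tested members were called higher and 1 lower (median 3.26), while several secreted proteins of this tissue stayed low. The 8 called higher became 5 without MEF 3, and the 1 called lower became 2 without iXEN 9. Spink3, a trypsin inhibitor, was at 0.0774, 0 and 0.0295 CPM in MEF and 38.7, 177, 507 and 51.6 CPM in iXEN cells. This was 5737-fold higher in iXEN cells by pooled counts (95% counting interval 1963 to 27820.0, 3 counts against 26855), adjusted p = 0.00288, and library 6 was the highest. Ihh, the hedgehog ligand of visceral endoderm, was at 0.116, 0.188 and 0.265 CPM in MEF against 32.5, 11.2, 8.93 and 7.41 CPM in iXEN cells (log2 fold change 6.30 ± 0.78 SE, adjusted p = 0.00254), and library 1 was the highest. Ttr, the thyroxine carrier, was at 0.271, 0.263 and 0.118 CPM in MEF against 2.43, 22.7, 18.4 and 7.67 CPM in iXEN cells (log2 fold change 5.97 ± 0.99 SE, adjusted p = 0.00561), and library 1 was the lowest. Afp, the fetal albumin homologue, was at 0.0774, 0 and 0.0295 CPM in MEF and 1.37, 1.11, 0.511 and 0.579 CPM in iXEN cells. Afp was 25.2-fold higher in iXEN cells by pooled counts (95% counting interval 8.42 to 124, 3 counts against 118), adjusted p = 0.00948. Afp was not called without MEF 3 (adjusted p up to 0.0597). Apoe, the lipid carrier made by many cells, fell, at 83.2, 34.6 and 76.5 CPM in MEF against 7.63, 15.1, 9.96 and 11.4 CPM in iXEN cells (log2 fold change -2.45 ± 0.39 SE, adjusted p = 0.00513). Of 18 members, 6 were too low to test, among them Apoa1, Apoa4, Apoc2, Cer1 and Lefty1, the last pair being signalling antagonists of the anterior visceral endoderm. Cer1 and Lefty1 were at or below 0.0869 CPM in every iXEN library.

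Of the epithelial genes, 8 of 17 tested members were called higher and 0 lower, with a median of 3.45 that became 3.13 with genes at 0 in MEF placed at their lower bound. The 8 called higher became 5 without MEF 3. Prss8, a membrane serine protease, was at 0.0387, 0 and 0 CPM in MEF and 4.52, 14.3, 6.68 and 1.77 CPM in iXEN cells. This was 629.97-fold higher in iXEN cells by pooled counts (95% counting interval 113 to 24907, 1 count against 983), adjusted p = 0.00442. Epcam, an adhesion molecule of epithelia, was at 0.0774, 0 and 0.118 CPM in MEF against 35.3, 24.4, 32.2 and 10.6 CPM in iXEN cells (log2 fold change 8.55 ± 0.93 SE, adjusted p = 0.00168). Krt8, the keratin of simple epithelia, was at 3.45, 6.51 and 3.12 CPM in MEF against 810.004, 479, 919 and 639 CPM in iXEN cells (log2 fold change 7.42 ± 0.50 SE, adjusted p = 0.000316). Its partner Krt18 was at 2.59, 5.42 and 1.86 CPM in MEF against 465, 279.98, 431 and 160.1 CPM in iXEN cells (log2 fold change 6.72 ± 0.64 SE, adjusted p = 0.00107). Reads of these keratins can be shared with near-identical copies, so their counts are uncertain. Library 9 was the lowest iXEN library for Prss8, Epcam and Krt18. Cldn6, a tight junction claudin, was at 0.0387, 0.0376 and 0.0589 CPM in MEF against 38.2, 2.44, 0.902 and 0.203 CPM in iXEN cells (log2 fold change 7.70 ± 2.15 SE, adjusted p = 0.0311), and its iXEN libraries spread from 0.203 to 38.2 CPM. Cldn6 was not called without MEF 1, 2 or 3, or without iXEN 1, 2 or 6 (adjusted p up to 0.11). Ovol2, an epithelial repressor, had no count in MEF and was at least 8.76-fold higher in iXEN cells, adjusted p = 0.0158. Ovol2 was not called without MEF 3, or without iXEN 1, 2 or 9 (adjusted p up to 0.0511). Cdh1 (E-cadherin) was not called, at 1.43, 0.602 and 2.27 CPM in MEF and 10.9, 0.541, 0.692 and 0.492 CPM in iXEN cells, so library 1 was above MEF and libraries 2 and 9 below it. Without library 1 the log2 fold change of Cdh1 turned from 1.13 to -1.19 (adjusted p = 0.134). Library 1 was singled out for its high value, so that turn follows from the choice. Cldn3, Cldn4, Cldn7, Grhl2 and Ap1m2, markers of mature epithelia, were too low to test.

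**Figure D2:**
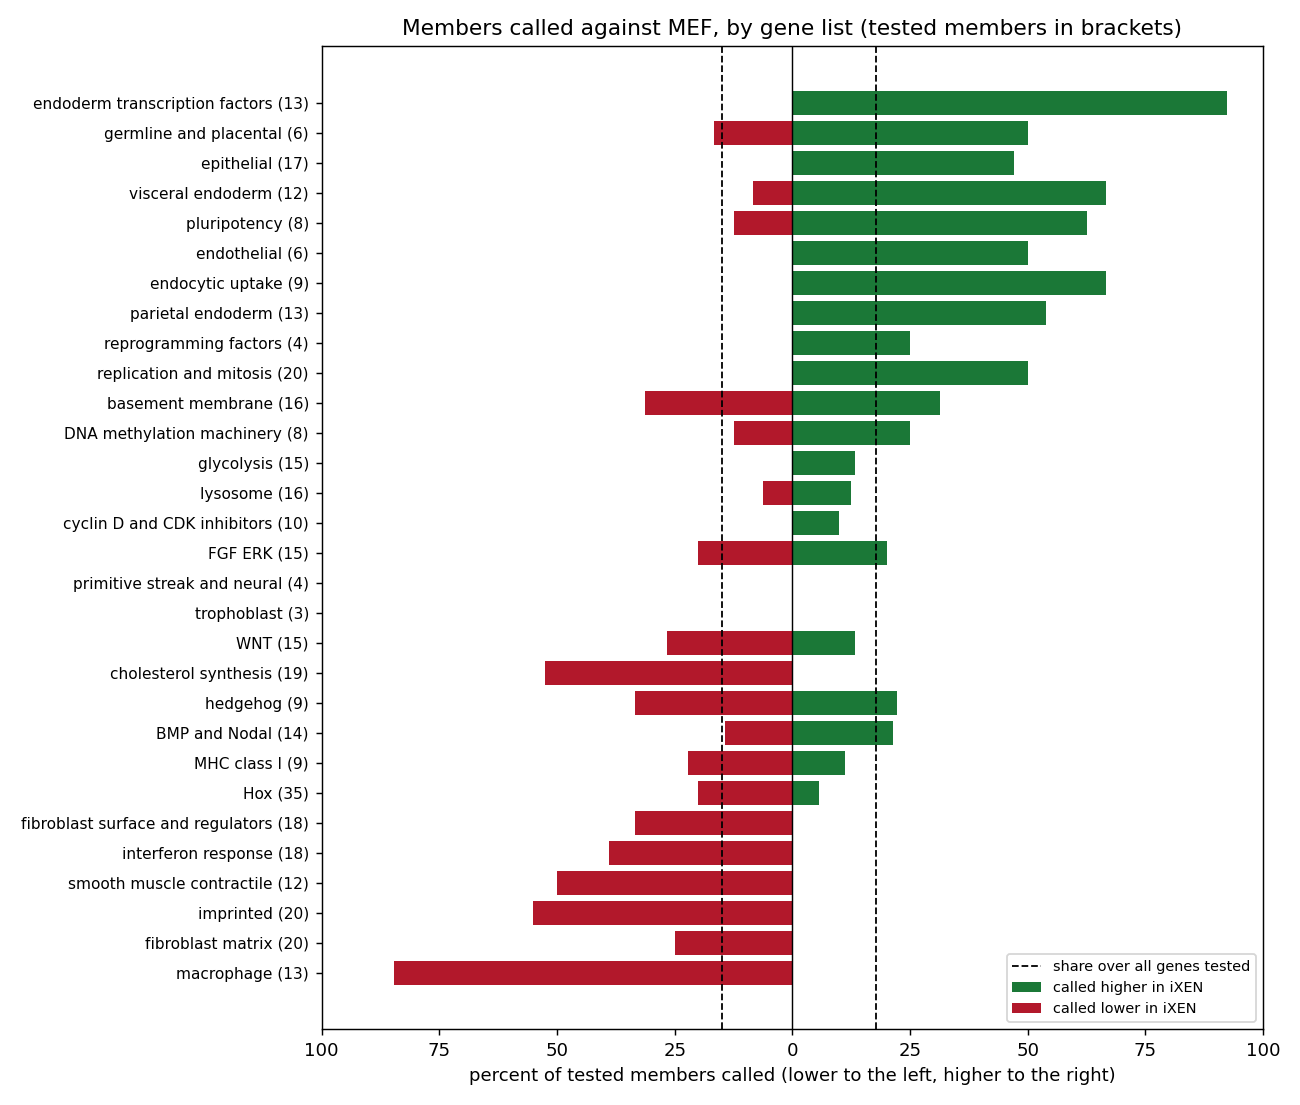
Percent of tested members called in each of 30 gene lists, drawn to the right for higher and to the left for lower in iXEN cells, with the lists ordered by median log2 fold change and the number of tested members in brackets. Dashed lines mark the shares over all genes tested, 17.7% higher and 14.9% lower. Endoderm transcription factors stand at 12 of 13 higher and macrophage markers at 11 of 13 lower.

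Interstitial matrix genes of fibroblasts were lower in iXEN cells, to a degree that depended on the library. In this list 0 of 20 tested members were called higher and 5 lower, although in 18 of 20 genes every iXEN library was below every MEF library. Over all 14438 genes tested, 51.3% did not overlap in either direction. The iXEN libraries were all below MEF in 2147 called and 2046 uncalled genes. The 5 called lower became 2 without MEF 1, 2 or 3, 11 without iXEN 2 and 3 without iXEN 9. The median log2 fold change was -5.12. The 5 called genes were Eln, Col5a2, Bgn, Fbn1 and Col8a1. Eln (elastin) was at 166, 152 and 579 CPM in MEF against 0.0380, 1.40, 0.0301 and 0 CPM in iXEN cells (log2 fold change -9.47 ± 1.71 SE, adjusted p = 0.00719). Col5a2, a chain of fibrillar collagen V, was at 3537, 3148 and 3635 CPM in MEF against 0.0380, 51.4, 0 and 21.5 CPM in iXEN cells (log2 fold change -7.42 ± 2.30 SE, adjusted p = 0.0428). Col5a2 was not called without MEF 1, 2 or 3, or without iXEN 9 (adjusted p up to 0.0997). Bgn (biglycan) was at 4904, 4469 and 5273 CPM in MEF against 0.608, 101.4, 3.94 and 96.8 CPM in iXEN cells (log2 fold change -6.45 ± 1.64 SE, adjusted p = 0.0232). Bgn was not called without MEF 1, 2 or 3 (adjusted p up to 0.0642). Col1a1, the main chain of collagen I, was at 12934, 12929.7 and 17288 CPM in MEF and 0.114, 393, 0.180 and 391 CPM in iXEN cells, with log2 fold change -6.06 ± 2.39 SE, adjusted p = 0.0864. Libraries 1 and 6 held a fraction of a CPM of Col1a1, and libraries 2 and 9 held 2.73% and 2.72% of the MEF mean.

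Postn (periostin) was at 1613, 1014 and 2417 CPM in MEF and 0, 189, 0 and 0.0579 CPM in iXEN cells, and was detected above a trace in library 2 only. Its log2 fold change of -5.02 (95% interval -11.49 to 1.46, adjusted p = 0.195) became -15.94 without library 2. This fit is shown because library 2 alone held Postn above a trace. The choice itself lowers the gene, and nothing is read from it. With libraries 2 and 9 left out, 19 of the 20 matrix genes were called lower, beside 28.8% of all genes in that fit. Without library 2 alone the share of all genes called lower was 19.3%, and without library 9 alone 16.9%. Over the list, the median gene stood at 0.000736% of the MEF mean in library 1, 6.004% in library 2, 0.00642% in library 6 and 1.74% in library 9. In bulk RNA, fewer cells of a type and less RNA per cell cannot be told apart, and the part that other cells in the cultures may have in these values was not tested. Gata4 stood at 469 and 562 CPM in libraries 2 and 9 and at 583 and 621 CPM in libraries 1 and 6. Nothing about other cells in the cultures is read from these Gata4 values.

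Surface and regulatory genes of fibroblasts also differed between libraries. In this list 0 of 18 tested members were called higher and 6 lower (median -2.77). Without libraries 2 and 9, left out for such genes, 18 of 18 were called lower, beside 28.8% of all genes. Meox2, a mesenchymal homeobox gene, was at 26.2, 29.3 and 35.9 CPM in MEF and had no count in any iXEN library, so it was at least 1391-fold lower in iXEN cells, adjusted p = 0.00116. Cdh11, the mesenchymal cadherin, was at 1032, 793 and 1249 CPM in MEF against 6.53, 21.1, 3.64 and 8.54 CPM in iXEN cells (log2 fold change -6.58 ± 0.70 SE, adjusted p = 0.00156). Fap, a fibroblast surface protease, was at 14.1, 9.90 and 19.8 CPM in MEF against 0, 0.713, 0 and 0 CPM in iXEN cells (log2 fold change -6.15 ± 1.69 SE, adjusted p = 0.0298). Fap was not called without MEF 1, 2 or 3 (adjusted p up to 0.0953). Prrx1, a limb and fibroblast homeobox regulator, was at 701, 602 and 784 CPM in MEF against 0.152, 114, 0.271 and 38.1 CPM in iXEN cells (log2 fold change -4.06 ± 1.84 SE, adjusted p = 0.124). Thy1, a fibroblast surface glycoprotein, was at 334, 385 and 128 CPM in MEF against 0, 163, 0.0301 and 0.203 CPM in iXEN cells (log2 fold change -2.67 ± 2.39 SE, adjusted p = 0.408), with library 2 in the range of MEF and the other 3 close to 0. Twist2, a mesenchymal basic helix-loop-helix factor, was at 11.3, 19.6 and 20.9 CPM in MEF against 0, 61.8, 0 and 1.33 CPM in iXEN cells (log2 fold change 0.003 ± 2.11 SE, adjusted p = 0.999), with library 2 above MEF. Without libraries 2 and 9 its log2 fold change was -11.96.

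Library 9 had its own exceptions, named after their values were seen. Cd34, a sialomucin of progenitor cells, was at 95.7, 69.5 and 59.3 CPM in MEF and 0.0380, 80.9, 0.0602 and 679 CPM in iXEN cells. Ly6a (Sca-1) was at 281, 266 and 119 CPM in MEF and 0.266, 113, 6.35 and 3536 CPM in iXEN cells. These genes were 907% and 1595% of the MEF mean in library 9, and below 1% in library 1. Fbln5, an elastic fibre protein, was at 0, 11.3, 0.0902 and 239 CPM in iXEN cells, and library 9 alone lay in the range of MEF, at 226, 312 and 304 CPM. Ly6a has near-identical family members, and its count is uncertain for that reason. Summed over the surface list, the level was 3805, 3280.2 and 3585 CPM in MEF and 47.1, 779.9, 48.1 and 4537 CPM in iXEN cells. Ly6a and Cd34 made up 3536 and 679 CPM of that sum in library 9, where the median gene of the list was at 7.73% of the MEF mean.

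Contractile genes of smooth muscle, which cultured fibroblasts also express, were lower. In this list 0 of 12 tested members were called higher and 6 lower (median -3.76). The 6 called lower became 3 without MEF 1, 2 or 3. Without libraries 2 and 9, chosen as said for their fibroblast genes, 10 of 12 were called lower, beside 28.8% of all genes. Myh11, smooth muscle myosin, was at 39.6, 121 and 26.2 CPM in MEF against 0, 0.689, 0.0301 and 0.0579 CPM in iXEN cells (log2 fold change -8.11 ± 1.39 SE, adjusted p = 0.00621). Acta2, smooth muscle actin, was at 2724, 5219 and 2239 CPM in MEF against 2.05, 165, 3.64 and 85.1 CPM in iXEN cells (log2 fold change -5.60 ± 1.54 SE, adjusted p = 0.0295). Acta2 was not called without MEF 1, 2 or 3, or without iXEN 9 (adjusted p up to 0.0761). Tagln (transgelin) was at 1029, 1869 and 868 CPM in MEF against 4.63, 107, 5.17 and 9.50 CPM in iXEN cells (log2 fold change -5.20 ± 1.30 SE, adjusted p = 0.022). Tagln was not called without MEF 1, 2 or 3 (adjusted p up to 0.0607). In all 3 genes library 2 was the highest iXEN library and stayed below MEF. Over the 51 fibroblast genes of these lists with a MEF level, the median was 0.0218%, 13.1%, 0.0484% and 2.51% of the MEF mean in libraries 1, 2, 6 and 9, and 4, 27, 4 and 17 genes reached 10% of it.

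**Figure D3:**
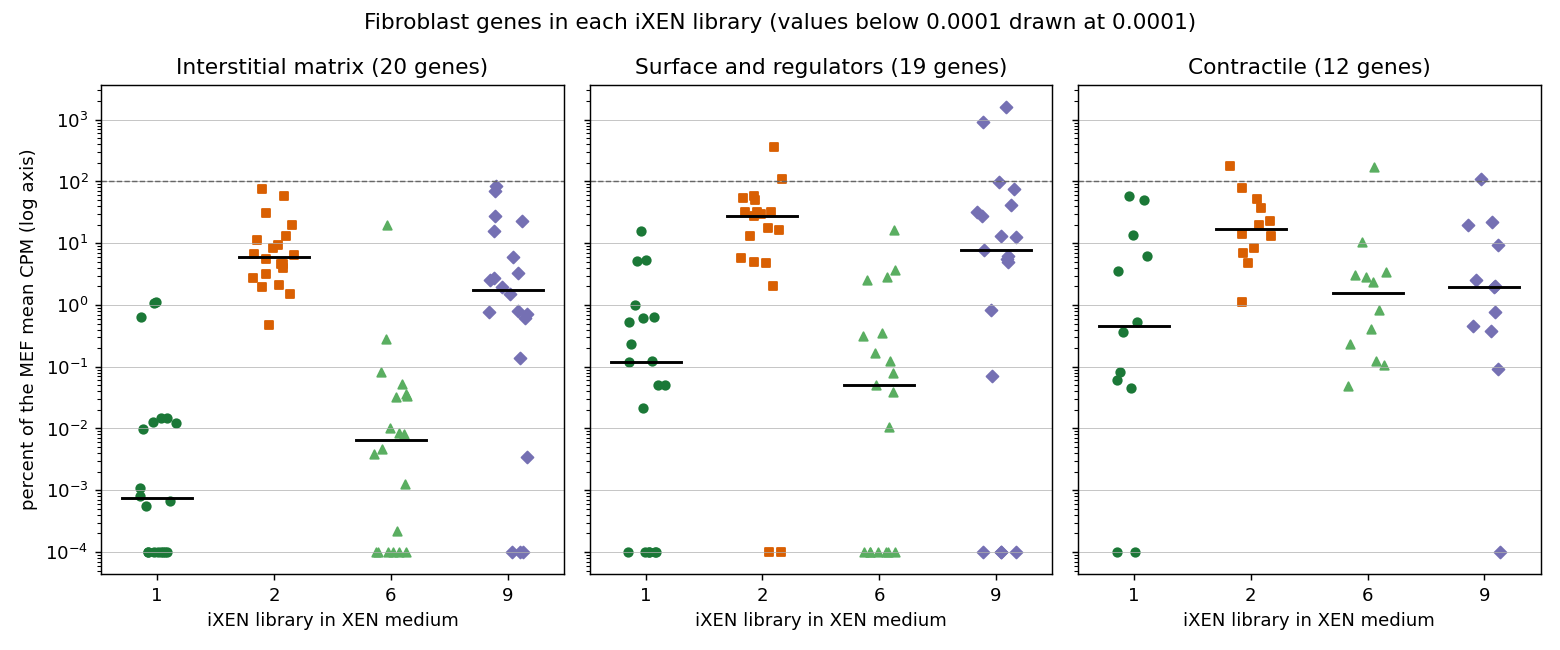
Level of each fibroblast gene in each iXEN library as a percent of its MEF mean, on a log axis, in 3 panels for matrix, surface and regulatory, and contractile genes. Points are genes, black bars are medians over genes and the dashed line marks 100%. The median of matrix genes is 6.004% in library 2 and 1.74% in library 9, and lies under 0.01% in libraries 1 and 6.

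Hox genes, which record the position of a fibroblast along the body, differed between iXEN libraries. Of 35 tested, 2 were called higher and 7 lower (median -1.69), and the share called lower was close to the 14.9% of all genes tested. The 2 called higher became 0 without MEF 1, 2 or 3, or iXEN 6 and 1 without iXEN 1, and the 7 called lower became 18 without iXEN 9. Of the 35, 17 overlapped between the groups, and the share that did not was close to the 51.3% of all genes tested. Without library 9, 16.9% of all genes were called lower, and without libraries 2 and 9, 28 Hox genes and 28.8% of all genes. The largest called decreases were in posterior HoxD genes. Hoxd13 was at 19.01, 18.7 and 56.3 CPM in MEF against 0.266, 0, 0.0902 and 0 CPM in iXEN cells (log2 fold change -8.47 ± 1.27 SE, adjusted p = 0.00436). Hoxd12 was at 2.67, 2.86 and 9.93 CPM in MEF with no count in iXEN cells, at least 251-fold lower in iXEN cells, adjusted p = 0.00621. Hoxd11 was at 3.91, 5.57 and 13.9 CPM in MEF and 0.0380, 0.0246, 0.0301 and 0 CPM in iXEN cells. Hoxd11 was 376-fold lower in iXEN cells by pooled counts (95% counting interval 128 to 1825, 3 counts against 722), adjusted p = 0.00162. Hoxc13 rose, at 0.310, 0.602 and 0.530 CPM in MEF against 10.7, 0.492, 4.51 and 2.23 CPM in iXEN cells (log2 fold change 3.24 ± 1.003 SE, adjusted p = 0.0429), with library 2 in the range of MEF. Hoxc13 was not called without MEF 1, 2 or 3, or without iXEN 1 or 6 (adjusted p up to 0.15). Other HoxD genes were above MEF in library 9. Hoxd9 was at 3.60, 4.74 and 7.63 CPM in MEF and 0.190, 0.836, 0.150 and 26.7 CPM in iXEN cells. Hoxd8 was at 18.3, 18.2 and 14.02 and 0.0380, 6.59, 0.0902 and 44.5 CPM, both genes being chosen after their values were seen. The summed level of Hox genes was 312, 356 and 387 CPM in MEF and 53.2, 80.6, 28.2 and 312 CPM in iXEN cells.

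Of the reprogramming factors themselves, Pou5f1 (Oct4) was called higher and the others were not. Pou5f1 was at 0.116, 0.0376 and 0.0295 CPM in MEF against 0.570, 1.38, 0.632 and 58.4 CPM in iXEN cells (log2 fold change 8.06 ± 2.43 SE, adjusted p = 0.0394). Pou5f1 was not called without MEF 1, 2 or 3 (adjusted p up to 0.135). Library 9 stood far above the other 3, which were at 0.570 to 1.38 CPM. Sox2 was at 1.66, 1.92 and 3.80 CPM in MEF against 0.0380, 0.0738, 0 and 48.2 CPM in iXEN cells (log2 fold change 2.45 ± 2.45 SE, adjusted p = 0.459), and library 9 was again the exception. Without library 9, the log2 fold change of Sox2 was -5.78. That fit is picked out because library 9 alone was high in Sox2, so nothing is read from its direction. Counts by gene symbol do not separate a resident gene from an introduced copy, and Pou5f1 has processed pseudogenes that can share its reads. Klf4, which fibroblasts express, was at 141, 128 and 186 CPM in MEF against 71.8, 281, 320.2 and 124 CPM in iXEN cells (log2 fold change 0.49 ± 0.53 SE, adjusted p = 0.493). Myc was at 48.6, 50.4 and 39.2 CPM in MEF against 83.4, 58.8, 24.2 and 79.7 CPM in iXEN cells (log2 fold change 0.50 ± 0.42 SE, adjusted p = 0.379). Klf4 and Myc overlapped between the groups.

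From the pluripotency list, Lin28a, Zfp42 and Tfcp2l1 rose and Klf2 fell. In this list 5 of 8 tested members were called higher and 1 lower (median 2.39), and 12 of 20 members were too low to test. The 5 called higher became 2 without MEF 1 or 3 and 3 without MEF 2, and the 1 called lower became 0 without MEF 1 or 3. Lin28a, an RNA-binding repressor of let-7 maturation, was at 0.155, 0.151 and 0.147 CPM in MEF against 519.9, 324, 344 and 116 CPM in iXEN cells (log2 fold change 11.10 ± 0.70 SE, adjusted p = 0.000291). Zfp42 (Rex1) was at 0, 0.188 and 0 CPM in MEF against 3.38, 8.83, 7.76 and 1.36 CPM in iXEN cells (log2 fold change 6.44 ± 1.49 SE, adjusted p = 0.0171). Zfp42 was not called without MEF 1 or 3 (adjusted p up to 0.0668). Tfcp2l1 was at 1.90, 1.35 and 2.27 CPM in MEF against 44.8, 161, 25.5 and 8.34 CPM in iXEN cells (log2 fold change 5.12 ± 1.09 SE, adjusted p = 0.0127). Tfcp2l1 was not called without MEF 1, 2 or 3 (adjusted p up to 0.0584). Klf2 fell, at 21.2, 17.6 and 47.5 CPM in MEF against 5.20, 2.21, 8.84 and 8.05 CPM in iXEN cells (log2 fold change -2.16 ± 0.56 SE, adjusted p = 0.0254). Klf2 was not called without MEF 1 or 3 (adjusted p up to 0.119). Nanog was at 0.929, 0.941 and 1.09 CPM in MEF against 1.29, 1.65, 1.59 and 1.39 CPM in iXEN cells (log2 fold change 0.67 ± 0.40 SE, adjusted p = 0.23), and its count may hold reads of pseudogenes. Fgf4 and Nr0b1 had no count in any of the 7 libraries, which at 3 counts of the shallowest library allows at most 0.116 CPM before scaling, and Esrrb, Dppa3, Dppa4 and Tdgf1 were at or below 0.0738 CPM in iXEN cells.

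Markers of other cells gave a mixed account. For macrophages, 0 of 13 tested members were called higher and 11 lower (median -7.25), with a summed level of 111 to 348 CPM in MEF and 6.27 to 14.2 CPM in iXEN cells. C1qa was at 4.76, 8.24 and 14.02 CPM in MEF with no count in iXEN cells, at least 425-fold lower in iXEN cells, adjusted p = 0.00383. Emr1 (F4/80) was at least 394-fold lower in iXEN cells, adjusted p = 0.00505 and C1qc at least 285-fold lower in iXEN cells, adjusted p = 0.00537, so these defining macrophage markers were at 0 in every iXEN library and at measurable levels in every MEF library. The part of macrophages in the values of MEF was not tested. For endothelial genes, 3 of 6 tested members were called higher and 0 lower. The 3 called higher became 1 without MEF 1. Cdh5 (VE-cadherin) was at 3.99, 1.81 and 2.50 CPM in MEF against 14.2, 151, 42.7 and 14.4 CPM in iXEN cells (log2 fold change 4.44 ± 1.05 SE, adjusted p = 0.0181). Cdh5 was not called without MEF 1, 2 or 3 (adjusted p up to 0.0791). Tek, an angiopoietin receptor, was at 15.1, 9.14 and 10.1 CPM in MEF against 71.2, 81.2, 49.1 and 32.6 CPM in iXEN cells (log2 fold change 2.43 ± 0.39 SE, adjusted p = 0.00503). Esam was at 0.194, 0.151 and 0.265 CPM in MEF against 5.96, 19.7, 24.2 and 1.04 CPM in iXEN cells (log2 fold change 6.02 ± 1.20 SE, adjusted p = 0.0101). Esam was not called without MEF 1 (adjusted p up to 0.0517). Pecam1 stood at 0.0760, 7.38, 0.241 and 0.203 CPM, Tie1 at 0.266, 4.80, 0.0902 and 0.0579 CPM and Emcn at 0, 0, 0.0301 and 0 CPM in iXEN cells, so Pecam1 and Tie1 were low except in library 2 and Emcn was near 0 throughout. None of 3 tested trophoblast genes and none of 4 tested streak or neural genes was called. Each of these lists held 12 members, of which 9 and 8 were too low to test. With genes kept from 1 count on, 2 trophoblast genes were called higher and 1 streak or neural gene lower.

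Imprinted genes that are strongly active in fibroblasts were lower. In this list 0 of 20 tested members were called higher and 11 lower (median -4.36). Igf2, a fetal growth factor, was at 8266, 8450.3 and 10074 CPM in MEF against 0.0380, 6.96, 0.211 and 0.0290 CPM in iXEN cells (log2 fold change -12.13 ± 2.28 SE, adjusted p = 0.00822). H19, the noncoding RNA next to it, was at 8692, 10460.3 and 9754 CPM in MEF against 1.14, 30.5, 2.98 and 0.898 CPM in iXEN cells (log2 fold change -9.96 ± 1.65 SE, adjusted p = 0.00552). Dlk1, a paternally expressed Notch-related ligand, was at 596, 649 and 908 CPM in MEF against 0, 3.20, 0.0301 and 0.0290 CPM in iXEN cells (log2 fold change -9.62 ± 1.99 SE, adjusted p = 0.0114). All 4 iXEN libraries were below MEF by orders of magnitude, with library 2 the highest in each gene. Grb10, an insulin receptor adaptor, moved likewise, at 1618, 1726 and 1778 CPM in MEF against 0.114, 4.21, 0.211 and 7.76 CPM in iXEN cells (log2 fold change -8.97 ± 1.58 SE, adjusted p = 0.00676). Igf2r, the maternally expressed receptor that clears IGF2, was at 844, 748 and 800.4 CPM in MEF against 78.7, 158, 170.4 and 123 CPM in iXEN cells (log2 fold change -2.49 ± 0.33 SE, adjusted p = 0.00308). Peg10 went the other way in 3 libraries without a call, at 120.3, 106 and 141 CPM in MEF against 2482, 321, 593 and 95.9 CPM in iXEN cells (log2 fold change 2.85 ± 0.998 SE, adjusted p = 0.0624). Snrpn is listed at 0 in all libraries and says nothing here.

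Part of the interferon-stimulated genes fell in iXEN cells. In this list 0 of 18 tested members were called higher and 7 lower (median -2.85), and 17 were called lower without libraries 2 and 9. Over all genes, 14.9% were called lower, and 28.8% in the fit without those 2 libraries. The 7 called lower became 2 without MEF 1 or 3, 3 without MEF 2 or iXEN 6 and 17 without iXEN 2. Ifi44 was at 7.05, 6.02 and 8.51 CPM in MEF against 0, 0.295, 0.150 and 0.0869 CPM in iXEN cells (log2 fold change -5.57 ± 0.96 SE, adjusted p = 0.00633). Rsad2 (viperin), an antiviral enzyme, was at 2.98, 2.03 and 2.39 CPM in MEF against 0.0380, 0.369, 0.0602 and 0 CPM in iXEN cells (log2 fold change -4.20 ± 1.10 SE, adjusted p = 0.0253). Rsad2 was not called without MEF 1, 2 or 3, or without iXEN 6 (adjusted p up to 0.0842). Usp18, a brake on interferon signalling, was at 16.03, 13.2 and 15.1 CPM in MEF against 0.0380, 2.56, 1.74 and 0.261 CPM in iXEN cells (log2 fold change -3.57 ± 1.11 SE, adjusted p = 0.0439). Usp18 was not called without MEF 1, 2 or 3, or without iXEN 6 or 9 (adjusted p up to 0.116). Ddx58 (RIG-I), a sensor of viral RNA, was at 78.4, 68.8 and 70.9 CPM in MEF against 2.09, 13.7, 6.53 and 5.59 CPM in iXEN cells (log2 fold change -3.27 ± 0.59 SE, adjusted p = 0.00717). In the class I antigen presentation list, 1 of 9 tested members were called higher and 2 lower, beside 17.7% and 14.9% of all genes tested. The 1 called higher became 0 without MEF 1 or 3, or iXEN 6 or 9 and 2 without iXEN 1, and the 2 called lower became 1 without MEF 1, 2 or 3 and 5 without iXEN 1 or 2. Psmb9, an immunoproteasome subunit, was at 5.58, 5.12 and 7.57 CPM in MEF against 0.266, 1.13, 0.662 and 0.347 CPM in iXEN cells (log2 fold change -3.22 ± 0.62 SE, adjusted p = 0.00882). The peptide transporter Tap1 was at 36.5, 37.1 and 40.6 CPM in MEF against 5.70, 7.50, 19.9 and 12.2 CPM in iXEN cells (log2 fold change -1.66 ± 0.44 SE, adjusted p = 0.0275). Tap1 was not called without MEF 1, 2 or 3 (adjusted p up to 0.094). H2-D1 rose, at 24.2, 45.98 and 16.99 CPM in MEF against 46.03, 91.2, 91.9 and 107 CPM in iXEN cells (log2 fold change 1.62 ± 0.46 SE, adjusted p = 0.0332), but its counts are uncertain because class I heavy chain genes resemble each other. H2-D1 was not called without MEF 1 or 3, or without iXEN 6 or 9 (adjusted p up to 0.124). B2m, the light chain, was not called, with a log2 fold change of -0.70 (95% interval -2.06 to 0.66, adjusted p = 0.377).

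Of germline and placental genes, 3 of 6 tested members were called higher and 1 lower, and Rhox5 was not analysed here. The 3 called higher became 1 without MEF 1, 2 or 3, or iXEN 1, 2 or 6. Trap1a was at 0.232, 0.339 and 0.265 CPM in MEF against 169, 253, 413 and 251 CPM in iXEN cells (log2 fold change 9.99 ± 0.53 SE, adjusted p = 0.000195), even across iXEN libraries. Tex19.1, a regulator of transposons, was at 0, 0.0376 and 0 CPM in MEF and 74.9, 7.31, 5.50 and 0.116 CPM in iXEN cells. Tex19.1 was 1575-fold higher in iXEN cells by pooled counts (95% counting interval 282 to 62218, 1 count against 2457), adjusted p = 0.021. Tex19.1 was not called without MEF 1, 2 or 3, or without iXEN 1, 2 or 6 (adjusted p up to 0.0872). Rhox6, a homeobox gene, was at 0, 0.0753 and 0 CPM in MEF and 2.16, 29.97, 9.66 and 0.0869 CPM in iXEN cells. Rhox6 was 512-fold higher in iXEN cells by pooled counts (95% counting interval 142 to 4234, 2 counts against 1599), adjusted p = 0.0269. Rhox6 was not called without MEF 1, 2 or 3, or without iXEN 1, 2 or 6 (adjusted p up to 0.102). Tex19.1 and Rhox6 reached library 9 at only 0.116 and 0.0869 CPM. Ddx4 (Vasa), a germ cell helicase, was present in MEF and fell, at 15.9, 16.7 and 7.19 CPM in MEF and 0, 0.0738, 0 and 0 CPM in iXEN cells. Ddx4 was 572-fold lower in iXEN cells by pooled counts (95% counting interval 195 to 2776, 3 counts against 1099), adjusted p = 0.0028. In the DNA methylation machinery, 2 of 8 tested members were called higher and 1 lower, beside 17.7% and 14.9% of all genes tested. Dnmt3b rose, at 3.60, 2.93 and 3.74 CPM in MEF against 91.2, 29.4, 49.2 and 28.1 CPM in iXEN cells (log2 fold change 3.90 ± 0.48 SE, adjusted p = 0.00255). So did the cofactor Dnmt3l, at 0.194, 0.151 and 0.0589 CPM in MEF against 0.949, 5.68, 2.83 and 0.927 CPM in iXEN cells (log2 fold change 4.35 ± 0.97 SE, adjusted p = 0.0151). Dnmt3l was not called without MEF 1, 2 or 3 (adjusted p up to 0.0721). Dnmt3a, the other de novo enzyme, fell, at 95.1, 70.4 and 121 CPM in MEF against 28.5, 29.9, 15.4 and 17.95 CPM in iXEN cells (log2 fold change -1.98 ± 0.32 SE, adjusted p = 0.00511). The maintenance enzyme Dnmt1 was not called, with a log2 fold change of 0.07 (95% interval -0.72 to 0.87, adjusted p = 0.881).

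In the FGF and ERK list, 3 of 15 tested members were called higher and 3 lower. These shares were near the 17.7% and 14.9% over all genes tested. The 3 called lower became 1 without MEF 1, 2 or 3, or iXEN 6. Among ligands, Fgf3 was at 0, 0 and 0.0295 CPM in MEF and 22.6, 13.2, 26.8 and 30.1 CPM in iXEN cells. This was 1961-fold higher in iXEN cells by pooled counts (95% counting interval 352 to 77482, 1 count against 3060), adjusted p = 0.000652. Fgf5 fell, at 5.65, 6.51 and 7.19 CPM in MEF against 0, 0.0738, 0.0301 and 0 CPM in iXEN cells (log2 fold change -7.56 ± 0.97 SE, adjusted p = 0.0028). Among receptors, Fgfr4 was at 0.503, 0.527 and 0.324 CPM in MEF against 55.4, 6.20, 45.8 and 54.2 CPM in iXEN cells (log2 fold change 6.54 ± 0.88 SE, adjusted p = 0.00318). Fgfr3 was at 4.49, 4.74 and 9.34 CPM in MEF against 55.4, 82.9, 58.99 and 63.8 CPM in iXEN cells (log2 fold change 3.49 ± 0.38 SE, adjusted p = 0.00168). Fgfr2 fell, at 81.2, 64.5 and 97.96 CPM in MEF against 30.2, 6.94, 16.3 and 1.80 CPM in iXEN cells (log2 fold change -2.53 ± 0.76 SE, adjusted p = 0.0396). Fgfr2 was not called without MEF 1, 2 or 3, or without iXEN 2 or 6 (adjusted p up to 0.116). Fgfr1, the main receptor of fibroblasts, was at 286, 242 and 316 CPM in MEF and 0.0760, 67.7, 3.10 and 51.5 CPM in iXEN cells, lower in all 4 libraries but uneven and not called (adjusted p = 0.15). Among feedback inhibitors, Spry1 was at 38.9, 41.6 and 40.3 CPM in MEF against 0.836, 5.09, 0.722 and 0.0290 CPM in iXEN cells (log2 fold change -4.48 ± 1.22 SE, adjusted p = 0.0292). Spry1 was not called without MEF 1, 2 or 3, or without iXEN 1 or 6 (adjusted p up to 0.0829). Spry2 was not called, with a log2 fold change of -0.11 (95% interval -0.67 to 0.45, adjusted p = 0.737).

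In the BMP and Nodal list, 3 of 14 tested members were called higher and 2 lower, near the 17.7% and 14.9% over all genes tested. The 2 called lower became 1 without MEF 1, 2 or 3, or iXEN 1 and 5 without iXEN 9. The ligands Bmp2 and Bmp6 rose. Bmp2 was at 1.24, 0.715 and 3.71 CPM in MEF against 18.002, 31.6, 63.3 and 42.1 CPM in iXEN cells (log2 fold change 4.45 ± 0.76 SE, adjusted p = 0.0061). Bmp6 was at 1.32, 1.96 and 0.766 CPM in MEF against 51.8, 11.2, 9.45 and 22.2 CPM in iXEN cells (log2 fold change 4.18 ± 0.76 SE, adjusted p = 0.00748). The BMP antagonist Nog rose with them, at 1.24, 1.69 and 2.24 CPM in MEF against 67.8, 103, 161 and 185 CPM in iXEN cells (log2 fold change 6.32 ± 0.54 SE, adjusted p = 0.000725). The inhibitory SMAD genes fell. Smad6 was at 9.83, 19.08 and 22.2 CPM in MEF against 0.532, 1.48, 0.150 and 4.08 CPM in iXEN cells (log2 fold change -3.32 ± 1.01 SE, adjusted p = 0.0411). Smad6 was not called without MEF 1, 2 or 3, or without iXEN 1 or 2 (adjusted p up to 0.123). Smad7 was at 49.3, 71.6 and 67.5 CPM in MEF against 16.9, 21.8, 27.6 and 13.6 CPM in iXEN cells (log2 fold change -1.57 ± 0.30 SE, adjusted p = 0.00882). Bmp4 was at 35.4, 40.6 and 51.1 CPM in MEF and 0.0380, 0.123, 0.0602 and 53.4 CPM in iXEN cells, just above MEF in library 9 and near 0 in the other 3. In the hedgehog list, 2 of 9 tested members were called higher and 3 lower, beside the same 17.7% and 14.9%. Besides Ihh, the ligand Dhh rose, at 0.503, 0.602 and 0.442 CPM in MEF against 4.63, 17.7, 5.26 and 5.79 CPM in iXEN cells (log2 fold change 4.11 ± 0.71 SE, adjusted p = 0.00631). The transducer Smo and the target and effector genes Gli1 and Gli3 fell. Gli3 was at 89.9, 78.6 and 122 CPM in MEF against 12.3, 12.8, 1.29 and 9.15 CPM in iXEN cells (log2 fold change -3.36 ± 0.68 SE, adjusted p = 0.0109). Smo was at 179, 167 and 204 CPM in MEF against 70.8, 29.7, 46.3 and 64.7 CPM in iXEN cells (log2 fold change -1.72 ± 0.31 SE, adjusted p = 0.00701). Gli1 was at 3.33, 2.56 and 3.27 CPM in MEF against 0.190, 1.03, 0.0602 and 0.261 CPM in iXEN cells (log2 fold change -2.84 ± 0.88 SE, adjusted p = 0.043). Gli1 was not called without MEF 1, 2 or 3, or without iXEN 1, 6 or 9 (adjusted p up to 0.12). Ptch1, a receptor and target gene, was not called, with a log2 fold change of -1.35 (95% interval -3.25 to 0.56, adjusted p = 0.232).

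In the WNT list, 2 of 15 tested members were called higher and 4 lower, beside 17.7% and 14.9% of all genes tested. The 2 called higher became 0 without MEF 1, 2 or 3, and the 4 called lower became 1 without MEF 1 or iXEN 6, 2 without MEF 2 and 0 without MEF 3. Wnt11, a ligand of noncanonical signalling, was at 2.21, 3.09 and 4.74 CPM in MEF against 121, 10.8, 8.42 and 56.5 CPM in iXEN cells (log2 fold change 3.92 ± 1.03 SE, adjusted p = 0.026). Wnt11 was not called without MEF 1, 2 or 3 (adjusted p up to 0.101). Dkk1, a secreted WNT antagonist, was at 0.194, 0.263 and 0.471 CPM in MEF against 44.97, 20.8, 6.41 and 0.898 CPM in iXEN cells (log2 fold change 5.89 ± 1.35 SE, adjusted p = 0.0167), and library 9 was far lower than library 1. Dkk1 was not called without MEF 1, 2 or 3 (adjusted p up to 0.0747). Sfrp2, another secreted antagonist, fell, at 418, 374 and 552 CPM in MEF against 0, 8.73, 0 and 0.0290 CPM in iXEN cells (log2 fold change -7.53 ± 2.23 SE, adjusted p = 0.0372). Sfrp2 was not called without MEF 1, 2 or 3, or without iXEN 6 or 9 (adjusted p up to 0.0934). The ligands Wnt2 and Wnt5b fell too. Wnt2 was at 4.10, 4.82 and 4.33 CPM in MEF against 0, 0.197, 0 and 0 CPM in iXEN cells (log2 fold change -6.16 ± 1.33 SE, adjusted p = 0.0136). Wnt2 was not called without MEF 3 (adjusted p up to 0.05). Wnt5b was at 3.37, 2.26 and 10.3 CPM in MEF against 0, 0.492, 0.0602 and 0.0869 CPM in iXEN cells (log2 fold change -4.85 ± 1.23 SE, adjusted p = 0.023). Wnt5b was not called without MEF 1 or 3, or without iXEN 6 (adjusted p up to 0.0899). Axin2, a target gene of beta-catenin signalling, was not called, with a log2 fold change of 0.10 (95% interval -1.23 to 1.44, adjusted p = 0.901).

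Part of the DNA replication genes rose in iXEN cells. In the list of replication and mitosis, 10 of 20 tested members were called higher and 0 lower (median 1.26), and 16 were called higher without libraries 2 and 9. Over all genes, 17.7% were called higher, and 23% in the fit without those 2 libraries. The list summed to 330%, 145%, 282% and 148% of the MEF mean in iXEN 1, 2, 6 and 9. Leaving out libraries 2 and 9 thus itself raises the list, and nothing is read from that fit. The 10 called higher became 1 without MEF 1 or 3. Cdc6 and Cdt1, which load the replicative helicase, led. Cdc6 was at 10.6, 18.8 and 8.48 CPM in MEF against 207, 37.4, 106 and 53.02 CPM in iXEN cells (log2 fold change 3.03 ± 0.64 SE, adjusted p = 0.0128). Cdc6 was not called without MEF 1 or 3 (adjusted p up to 0.0623). Cdt1 was at 11.8, 19.98 and 16.3 CPM in MEF against 98.6, 69.4, 154 and 80.996 CPM in iXEN cells (log2 fold change 2.72 ± 0.36 SE, adjusted p = 0.00304). Cdk1, the mitotic kinase, was at 68.6, 98.5 and 53.9 CPM in MEF against 315, 148, 402 and 229 CPM in iXEN cells (log2 fold change 1.96 ± 0.40 SE, adjusted p = 0.0109). Cdk1 was not called without MEF 1 or 3 (adjusted p up to 0.0577). The mitotic genes Mki67, Plk1, Bub1 and Aurkb were not called, Mki67 with a log2 fold change of 0.32 (95% interval -0.42 to 1.07, adjusted p = 0.455). Among D cyclins and CDK inhibitors, 1 of 10 tested members was called higher and 0 lower, both below the 17.7% and 14.9% of all genes tested. The called member was Cdkn2d, at 0.232, 0.753 and 0.265 CPM in MEF against 2.01, 1.97, 2.53 and 1.07 CPM in iXEN cells (log2 fold change 2.24 ± 0.63 SE, adjusted p = 0.0313). Cdkn2d was not called without MEF 1 or 3, or without iXEN 6 (adjusted p up to 0.136). Ccnd1, chosen after its values were seen, was at 141, 229 and 151 CPM in MEF and 5.85, 124.9, 3.64 and 794 CPM in iXEN cells, near 0 in libraries 1 and 6 and above MEF in library 9. Cdkn2a, the locus of p16 and p19, was at 22.2, 39.7 and 31.9 CPM in MEF and 23.3, 258, 75.8 and 213 CPM in iXEN cells, above MEF in libraries 2, 6 and 9 and not called (adjusted p = 0.0625).

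Part of the cholesterol synthesis genes fell. In this list 0 of 19 tested members were called higher and 10 lower (median -1.30), and 10 were called lower without libraries 2 and 9 as well. The shares of all genes called lower were 14.9% and 28.8% in these fits. The 10 called lower became 4 without MEF 1 and 5 without MEF 2 or 3. Lss, which forms lanosterol, was at 155, 165 and 103 CPM in MEF against 18.95, 29.2, 34.2 and 11.4 CPM in iXEN cells (log2 fold change -2.51 ± 0.40 SE, adjusted p = 0.00508). Nsdhl, an enzyme of the later sterol steps, was at 150.2, 147 and 101.2 CPM in MEF against 24.2, 27.8, 36.8 and 16.7 CPM in iXEN cells (log2 fold change -2.26 ± 0.31 SE, adjusted p = 0.00331). Hsd17b7, another such enzyme, was at 92.5, 92.9 and 72.4 CPM in MEF against 33.003, 26.6, 19.6 and 10.3 CPM in iXEN cells (log2 fold change -1.88 ± 0.37 SE, adjusted p = 0.00948). All iXEN libraries lay below all MEF libraries for these genes. The iXEN media and the MEF medium differ, so cell type and medium cannot be told apart. Hmgcs1 is listed at 0 in all libraries and gives no value. In glycolysis, 2 of 15 tested members were called higher and 0 lower, both below the 17.7% and 14.9% over all genes tested. The 2 called higher became 0 without MEF 1, 2 or 3. The glucose transporter Slc2a3 was at 9.25, 8.77 and 12.1 CPM in MEF against 1420.5, 195, 31.9 and 218 CPM in iXEN cells (log2 fold change 5.56 ± 1.29 SE, adjusted p = 0.0173). Slc2a3 was not called without MEF 1, 2 or 3 (adjusted p up to 0.0753). Hexokinase Hk2 was at 30.5, 37.4 and 23.9 CPM in MEF against 251, 91.03, 111 and 47.6 CPM in iXEN cells (log2 fold change 2.07 ± 0.53 SE, adjusted p = 0.0232). Hk2 was not called without MEF 1, 2 or 3 (adjusted p up to 0.0975). For Slc2a3, library 1 was the highest and library 6 the lowest of the iXEN libraries. Eno1 was at or below 0.113 CPM in all 7 libraries. Among lysosomal genes, 2 of 16 tested members were called higher and 1 lower, again both below the 17.7% and 14.9% over all genes. The 2 called higher became 1 without MEF 1, 2 or 3, or iXEN 6 or 9, and the 1 called lower became 2 without iXEN 2. Ctsh, a lysosomal protease, was at 13.7, 11.2 and 10.5 CPM in MEF against 145, 215, 517 and 164 CPM in iXEN cells (log2 fold change 4.54 ± 0.56 SE, adjusted p = 0.00259). Lamp1 was at 659, 606 and 678 CPM in MEF against 1137, 923, 1572 and 1010.1 CPM in iXEN cells (log2 fold change 0.92 ± 0.28 SE, adjusted p = 0.0419). Lamp1 was not called without MEF 1, 2 or 3, or without iXEN 6 or 9 (adjusted p up to 0.15). Its paralogue Lamp2 fell, at 731, 539 and 789.6 CPM in MEF against 134, 161, 109.98 and 158 CPM in iXEN cells (log2 fold change -2.20 ± 0.27 SE, adjusted p = 0.00254).

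Outside the lists, the 8 largest called changes in each direction, among genes without overlap and with at least 50 CPM in the higher group, were all called in every fit that left out a library. Pla2g12b, of the secreted phospholipase family, was at 0.116, 0 and 0.0589 CPM in MEF against 68.8, 35.3, 70.7 and 106 CPM in iXEN cells (log2 fold change 10.23 ± 0.86 SE, adjusted p = 0.000712). Cyp26a1, which degrades retinoic acid, was at 0, 0.113 and 0.0589 CPM in MEF against 100.9, 34.6, 8.84 and 88.3 CPM in iXEN cells (log2 fold change 9.95 ± 1.31 SE, adjusted p = 0.00297). L1td1, an RNA-binding protein derived from a LINE-1 element, was at 0.232, 0.263 and 0.0295 CPM in MEF against 100.5, 89.6, 110.2 and 39.04 CPM in iXEN cells (log2 fold change 8.997 ± 0.80 SE, adjusted p = 0.000837). Myl3, a myosin light chain of slow and cardiac muscle, was at 0.426, 0.339 and 0.353 CPM in MEF against 14.2, 693, 267 and 22.4 CPM in iXEN cells (log2 fold change 9.48 ± 1.84 SE, adjusted p = 0.00913), with libraries 2 and 6 high. Serpinb6c, Nxf7, Wfdc1 and Frmpd1 were the other 4 that rose, with log2 fold changes of 9.75, 9.23, 8.88 and 8.85. The counts of Serpinb6c and Nxf7 are uncertain because close family members exist.

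The genes that fell most outside the lists are described next. Unc5c, a netrin receptor, was at 80.7, 73.1 and 116 CPM in MEF and 0, 0.0246, 0.0301 and 0.0290 CPM in iXEN cells. Unc5c was 4141-fold lower in iXEN cells by pooled counts (95% counting interval 1417 to 20086, 3 counts against 7962), adjusted p = 0.000107. Tnmd (tenomodulin), a tendon membrane protein, was at 116, 120.1 and 99.96 CPM in MEF against 0, 0.148, 0.0301 and 0 CPM in iXEN cells (log2 fold change -10.94 ± 0.91 SE, adjusted p = 0.000705). Svep1, a large extracellular adhesion protein, was at 553, 464 and 561 CPM in MEF against 0, 0.738, 0.0301 and 1.36 CPM in iXEN cells (log2 fold change -9.78 ± 1.45 SE, adjusted p = 0.00425). Rspo2, a secreted enhancer of WNT signalling, was at 44.02, 67.5 and 149 CPM in MEF against 0, 0.295, 0 and 0.0290 CPM in iXEN cells (log2 fold change -9.75 ± 1.24 SE, adjusted p = 0.00273). Megf6, Egfl6, Wisp2 and Pgm5 made up the 8, with log2 fold changes of -11.26, -10.97, -9.95 and -9.50. 

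To set the effect of the medium beside these differences, iXEN cells in XEN medium were compared with iXEN cells in ESC medium. In edgeR's quasi-likelihood test 0 of 12920 tested genes were called (0%). An unadjusted p under 0.05 was found for 3018 genes, the smallest adjusted p was 0.0581, and 718 genes had an adjusted p under 0.1. DESeq2 called 1546 genes. edgeR called 416 without iXEN library 6 in ESC medium and 346 without iXEN library 2 in XEN medium, so the count of 0 depends on the tool and on single libraries. Comparisons of both iXEN groups with MEF would share the MEF libraries, and values are therefore given side by side. Gata4 was at 859.6, 1112, 1198 and 1113 CPM in ESC medium and 583, 469, 621 and 562 CPM in XEN medium, a log2 difference of -0.92 (95% interval -1.44 to -0.39, adjusted p = 0.0852). Lama1 was at 28361, 26153, 16889 and 27926 CPM in ESC medium and 5770.02, 7225, 6961 and 6568 CPM in XEN medium, a difference of -1.88 (95% interval -2.63 to -1.14, adjusted p = 0.0581). Dab2 was at 929, 935, 1084 and 1163 CPM in ESC medium and 359, 329, 582 and 345 CPM in XEN medium, a difference of -1.33 (95% interval -1.93 to -0.72, adjusted p = 0.0585). All 4 libraries in XEN medium lay below all 4 in ESC medium for Lama1 and Dab2. Ihh was at 28.3, 124.9, 83.1 and 82.2 CPM in ESC medium and 32.5, 11.2, 8.93 and 7.41 CPM in XEN medium, a difference of -2.39 (95% interval -3.67 to -1.11, adjusted p = 0.0744). For Afp the difference was -2.92 (95% interval -4.85 to -0.99, adjusted p = 0.111) and for Ttr -2.62 (95% interval -4.45 to -0.79, adjusted p = 0.119).

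Other endoderm factors had intervals around 0, with differences of 0.64 (95% interval -0.18 to 1.47, adjusted p = 0.32) for Sox17, -0.09 (95% interval -0.83 to 0.64, adjusted p = 0.892) for Gata6 and 0.03 (95% interval -0.67 to 0.72, adjusted p = 0.969) for Foxa2. Nanog was at 0.504, 0.348, 0.369 and 0.653 CPM in ESC medium and 1.29, 1.65, 1.59 and 1.39 CPM in XEN medium, a difference of 1.68 (95% interval 0.64 to 2.72, adjusted p = 0.0972). The libraries in XEN medium were all above MEF in Nanog, and those in ESC medium all below MEF. Col1a1 was at 7.77, 5.44, 4.94 and 6.30 CPM in ESC medium and 0.114, 393, 0.180 and 391 CPM in XEN medium, a difference of 5.04 (95% interval 0.67 to 9.41, adjusted p = 0.169), with libraries 2 and 9 in XEN medium above every library in ESC medium. The fibroblast matrix genes summed to at most 109.7 CPM in a library in ESC medium, against 3430.3 CPM in library 2 and 2647 CPM in library 9 in XEN medium.

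Against XEN cells in the same medium, 0 of 13263 tested genes were called (0%) in edgeR's quasi-likelihood test, with 544 at an unadjusted p under 0.05, a smallest adjusted p of 0.174, and 75 called by DESeq2. A p that misses the threshold does not show that the cells are alike, and the intervals were wide. Gata4 was at 1272, 704 and 414 CPM in XEN cells and 583, 469, 621 and 562 CPM in iXEN cells, a log2 difference of -0.50 (95% interval -1.39 to 0.39, adjusted p = 0.985). Sox17 differed by -0.09 (95% interval -0.89 to 0.72, adjusted p = 0.987) and Lama1 by -0.47 (95% interval -1.71 to 0.77, adjusted p = 0.985). Cdh1 was at 4.70, 25.3 and 164 CPM in XEN cells and 10.9, 0.541, 0.692 and 0.492 CPM in iXEN cells, a difference of -4.42 (95% interval -7.91 to -0.92, adjusted p = 0.985), while Afp was at 0.833, 2.64 and 20.95 CPM in XEN cells and 1.37, 1.11, 0.511 and 0.579 CPM in iXEN cells, a difference of -3.20 (95% interval -5.66 to -0.75, adjusted p = 0.985). Col1a1 was at 0.294, 0.468 and 0.353 CPM in XEN cells and 0.114, 393, 0.180 and 391 CPM in iXEN cells, a difference of 9.08 (95% interval 2.33 to 15.83, adjusted p = 0.985). For Col1a1, libraries 1 and 6 lay below the range of XEN cells and libraries 2 and 9 far above it.

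**Figure D4:**
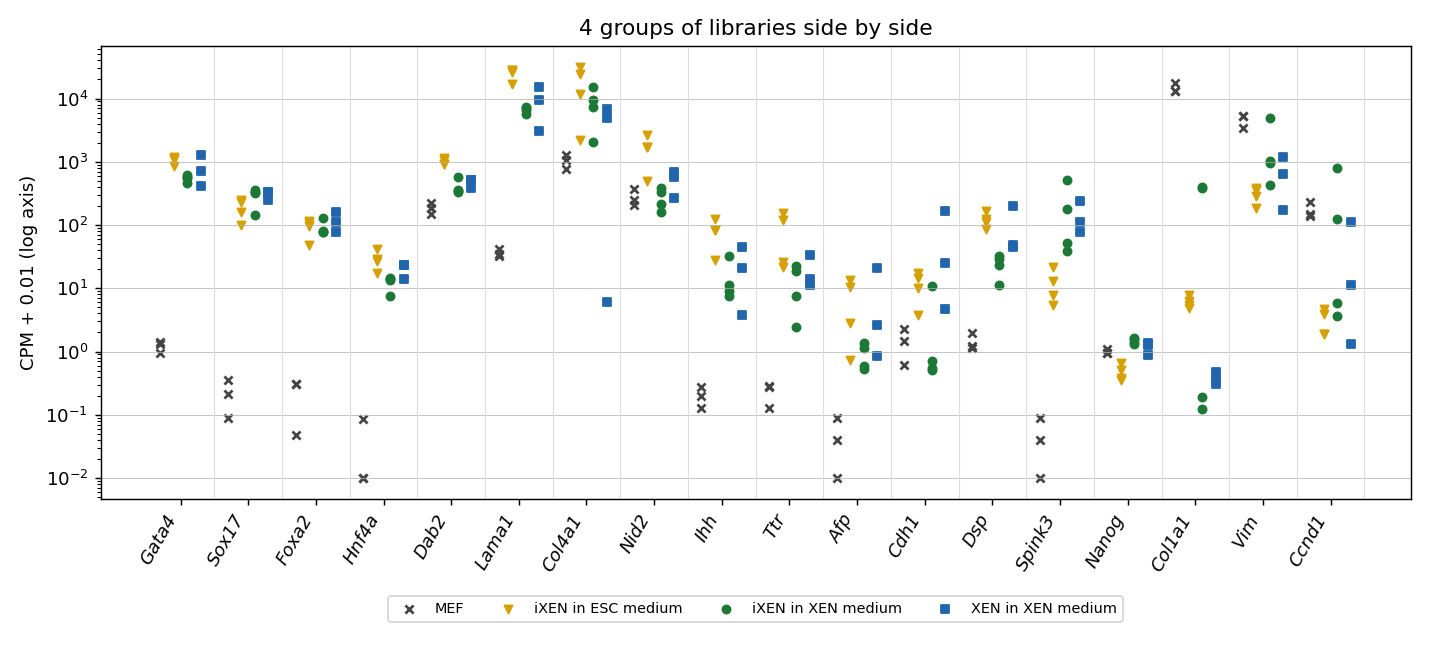
Expression of 18 genes in MEF, iXEN cells in ESC medium, iXEN cells in XEN medium and XEN cells in XEN medium, 1 point per library, as CPM plus 0.01 on a log axis. Gata4 and Lama1 separate the 3 endoderm groups from MEF, and Col1a1 in XEN medium splits the iXEN libraries into 393 and 391 CPM in libraries 2 and 9 and under 1 CPM in libraries 1 and 6.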

How the data were processed

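Messenger RNA of 17 CD-1 mouse libraries was extracted with Trizol and prepared with the TruSeq mRNA kit, per the labels' protocols. The deposited files hold whole-number read counts per gene symbol, made by the authors with HTSeq 0.6.1, TopHat2 2.0.12, Trimmomatic 0.32 and FastQC 0.11.3 on build mm9, per the submitters' processing notes. Step order, annotation and strand setting: not given in the sources used here. Therefore counts of antisense, overlapping and near-identical genes are uncertain. Counter lines (23.5% to 33.1% of a file among these 7 libraries) were left out. Pairs of libraries differed beyond sampling noise (chi-square per degree of freedom 46.1 to 694), so each counted as 1 replicate.

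Here, edgeR 4.0.16 (R 4.3.3, limma 3.58.1) filtered genes with filterByExpr (minimum count 10, total 15), scaled by TMM, and ran the two-sided quasi-likelihood test on the 2 groups compared, with Benjamini-Hochberg adjustment over all genes tested and a threshold of 0.05. CPM used TMM factors over all 17 libraries. Standard errors (SE) are absolute log2 fold changes over the root of F. Members and gene lists were chosen with earlier results of these data known. Named genes are a fixed set of leading genes, the 3 largest called changes per direction in each list with members not called, and the 8 largest outside the lists. Any other gene named was chosen after its values were seen, and some genes are not reported here. Where a group had 0 counts, a fold is a bound against 3 counts over the group. With 1 to 3 counts it is a ratio with a 95% exact interval for counting error only. Alternatives were RLE and upper quartile scaling, DESeq2 1.42.0, other filters, a fit on all 17 libraries, a fold threshold of 2, a replicate block and leaving out each library. Leaving out libraries 2 and 9 together was chosen after seeing the data.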

Additional observations from a re-analysis of the deposited data

Results flagged for a closer look

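In 62 groups of 4 iXEN values, the highest or lowest library was checked for a gap to its neighbour above Dixon's 95% critical value, which chance passes in about 1 of 20 groups, and 16 passed. Library 6 stood out as highest for Gata6 (551 CPM), Foxa2 (128 CPM) and Dab2 (582 CPM). Library 1 stood out as highest for Ihh (32.5 CPM) and Cdh1 (10.9 CPM). Library 2 stood out as highest for Postn (189 CPM), Thy1 (163 CPM) and Twist2 (61.8 CPM), and for the imprinted genes Igf2 (6.96 CPM), H19 (30.5 CPM) and Dlk1 (3.20 CPM). Library 9 stood out as highest for Pou5f1 (58.4 CPM) and Sox2 (48.2 CPM), as lowest for Hnf4a (7.44 CPM), and as highest in the summed level of fibroblast surface and regulatory genes (4537 CPM, of which Ly6a made up 3536 CPM) and of D cyclins and CDK inhibitors (1612 CPM).

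For Nanog, every iXEN library in XEN medium lay above MEF and every iXEN library in ESC medium lay below it. The direct comparison of the media gave a log2 difference of 1.68 with an adjusted p of 0.0972 in edgeR's quasi-likelihood test, which does not pass the threshold.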

How the results depend on the processing

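The count of 4708 genes called against MEF stayed within 4248 to 5912 under RLE and upper quartile scaling, DESeq2, both other filters and the fit on all 17 libraries. It was 1953 with a fold threshold of 2, ranged from 1842 to 5663 with 1 library left out, and was 7440 without libraries 2 and 9. Called list members, 173, ranged from 101 to 206 with 1 library left out and were 292 without libraries 2 and 9. Numbers 1 and 2 are shared with MEF by label only. The fit with the replicate block called 0 genes and 0 list members, with 1 residual degree of freedom. Against iXEN cells in ESC medium, the count of 0 became 1546 with DESeq2, 456 in the fit on all 17 libraries, 0 to 416 with 1 library left out and 1 without libraries 2 and 9, and stayed 0 under the replicate block. Between the media, deviations of libraries with the same number correlated at 0.159, 0.189, 0.132 and -0.0623 for numbers 1, 2, 6 and 9. Numbers 1, 2 and 6 correlated best with their own number and 9 did not, so the numbers were not taken as pairs. Against XEN cells it became 75 with DESeq2 and was 0 otherwise, the replicate block included. Twist2 (0.003) turned to -0.12 with RLE scaling, -0.0033 with the CPM filter, -0.042 in the fit on all 17 libraries, -2.45 under the replicate block and -11.96 without libraries 2 and 9, and ranged from -5.10 (without iXEN 2) to 0.42 with 1 library left out. Sox2 turned to -4.86 under the replicate block and -6.82 without libraries 2 and 9, and ranged from -5.78 (without iXEN 9) to 2.89. Cdh1 ranged from -1.19 (without iXEN 1) to 1.61. Of the alternative values of leading genes, 432 kept direction and side of the threshold, 39 lost the call, 9 gained it and 11 reversed. The cause was not tested beyond these settings. Depth limits genes under the level of 3 counts.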
